A study of Mus musculus with 100 samples.

Results

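Binding of PU.1 was compared between bone marrow-derived macrophages (BMDMs) given Kdo2 lipid A (KLA) for 6 h and BMDMs given vehicle (Veh), with 2 ChIP-seq libraries in each group. These 4 libraries are among 100 samples of a study that asked how the receptor TLR4 turns the corepressor NCoR into an activator of inflammatory genes. The members described here are the 50690 genomic regions of the PU.1 peak table, and each was placed by its own change in PU.1 tags into a gained, lost, kept or between set. Cells of both groups were wild type and, by the study's methods, were differentiated from the marrow of C57BL/6 mice of 8 to 12 weeks with M-CSF, then starved of serum before KLA was added at 100 ng/mL. KLA mimics bacterial lipopolysaccharide and activates TLR4. The protocol calls the replicates biological, and no label says that they came from separate mice, so p-values measure the spread between these libraries only. Replicates of the same number in Veh and KLA share no animal or culture that the labels name.

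PU.1, encoded by Spi1, is an ETS family transcription factor that macrophages and B cells need for their development. It recognizes a purine-rich element around the letters GAGGAAGT, and at many macrophage enhancers it acts as a pioneer factor that binds together with C/EBP, AP-1, RUNX and IRF proteins. In resting macrophages it marks much of the enhancer repertoire of the lineage. TLR4 signaling then brings in NFκB, AP-1, IRF and STAT factors, some of which open enhancers that were closed before, and PU.1 can be recruited to those sites as well.

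Library totals were 19.3 and 16.1 M tags for Veh and 15.3 and 15.7 M tags for KLA. Inside the listed peaks lay 51.6% and 52.8% of the Veh tags and 41.5% and 41.7% of the KLA tags. Log2 tags per peak correlated at Pearson's r of 0.978 between the Veh libraries, 0.966 between the KLA libraries and 0.669 to 0.682 between groups, across peaks, which are not independent replicates. The chi-square of the counts per peak was 1.31 and 1.49 within groups and 17.0 to 18.8 between them, so no library repeated another within sampling noise. All 50690 peaks passed the filter of at least 4 tags in 1 library, since even the weakest peak held 42 tags in its highest library. The file lists the nearest gene of each peak by distance to the transcription start site (TSS), and that gene is used below as a label of place, not as a proven target.

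The identity of the cells was examined at genes that define macrophages and at genes of other blood cells. The strongest peaks nearest to Adgre1 (the F4/80 antigen), Cd68, Itgam (CD11b), Csf1r (the M-CSF receptor), Fcgr1, Mertk, Lyz2, Cd14 and Spi1 had 248 to 426 PU.1 tags per 10 M library tags in Veh. Of 25 genes listed as markers of other blood cells, 15 had no PU.1 peak, among them Cd3e, Cd8a, Pax5, Ebf1, Gata1 and Ly6g. The other 10 held 27 peaks, and the strongest of those, nearest to Ms4a1 (340 tags per 10 M in Veh) and Cd4 (252), lay within that range. Binding near a gene does not measure its expression.

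Sequences of 9 peaks are shown first, because the letters around the peak centre are a feature that the counts did not use. They are the named peaks in introns or between genes that held the most kinds of motif match in each set, with ties settled by the lower p, and the Spi1 enhancer. They are examples and do not stand for their sets. Each is 200 bases of the plus strand of mm10, 5′ to 3′, centred on the peak. Capitals mark matches to the motif strings spelled out with the motif shares, on either strand.

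In 3 gained peaks, upstream of Ptges (chr2:30913175-30913374), near 1700055C04Rik (chr9:64031873-64032072) and near Mir5118 (chr16:55589466-55589665), the capitals include short PU.1 cores (GAGGAA) and AP-1 or NFκB strings. In the Mir5118 peak the NFκB string overlaps a short core.
Ptges: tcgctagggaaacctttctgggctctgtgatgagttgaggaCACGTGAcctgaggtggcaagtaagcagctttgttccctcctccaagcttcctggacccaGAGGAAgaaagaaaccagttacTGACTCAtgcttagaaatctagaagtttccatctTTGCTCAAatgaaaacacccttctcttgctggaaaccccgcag
1700055C04Rik: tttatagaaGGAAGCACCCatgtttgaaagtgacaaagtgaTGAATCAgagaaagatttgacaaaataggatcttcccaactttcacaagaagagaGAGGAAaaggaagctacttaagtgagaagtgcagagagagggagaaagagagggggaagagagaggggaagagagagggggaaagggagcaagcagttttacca
Mir5118: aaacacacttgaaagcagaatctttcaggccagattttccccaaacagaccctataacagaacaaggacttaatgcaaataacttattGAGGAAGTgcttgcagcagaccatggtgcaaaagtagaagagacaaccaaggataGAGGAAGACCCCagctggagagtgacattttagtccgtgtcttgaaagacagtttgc

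In 3 lost peaks, inside introns of Slco2b1 (chr7:99674932-99675131), Wdfy2 (chr14:62808784-62808983) and Zfyve28 (chr5:34243485-34243684), the capitals include a PU.1 core beside a RUNX string (Slco2b1), an NFκB string that overlaps a short core and an ETS-IRF string (Wdfy2), and a C/EBP string with a short core (Zfyve28). No AP-1 string lies in these windows, but the named lost peak inside Fli1 holds one.
Slco2b1: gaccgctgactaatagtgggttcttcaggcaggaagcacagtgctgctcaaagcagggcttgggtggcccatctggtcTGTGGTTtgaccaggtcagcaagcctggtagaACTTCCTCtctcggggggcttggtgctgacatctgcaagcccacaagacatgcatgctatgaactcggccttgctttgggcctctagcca
Wdfy2: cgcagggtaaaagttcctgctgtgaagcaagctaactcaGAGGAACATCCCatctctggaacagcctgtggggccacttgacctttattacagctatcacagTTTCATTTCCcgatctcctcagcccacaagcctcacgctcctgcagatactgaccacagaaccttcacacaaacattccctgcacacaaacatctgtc
Zfyve28: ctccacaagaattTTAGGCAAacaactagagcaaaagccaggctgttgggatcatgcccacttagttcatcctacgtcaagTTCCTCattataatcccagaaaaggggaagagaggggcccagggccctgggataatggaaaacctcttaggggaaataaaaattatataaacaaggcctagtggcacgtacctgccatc

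Among kept peaks, those near Ptpn1 (chr2:167925102-167925301) and Ptafr (chr4:132592972-132593171) and upstream of Spi1 (chr2:91086424-91086623) are shown.
Ptpn1: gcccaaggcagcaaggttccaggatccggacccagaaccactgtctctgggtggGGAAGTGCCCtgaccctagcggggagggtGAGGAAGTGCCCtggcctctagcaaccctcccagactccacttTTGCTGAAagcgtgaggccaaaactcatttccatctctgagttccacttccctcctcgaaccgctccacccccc
Ptafr: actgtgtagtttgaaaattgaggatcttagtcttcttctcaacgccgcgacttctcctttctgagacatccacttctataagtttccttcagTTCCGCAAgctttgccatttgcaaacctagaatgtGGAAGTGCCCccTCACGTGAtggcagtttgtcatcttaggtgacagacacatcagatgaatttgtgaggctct
Spi1: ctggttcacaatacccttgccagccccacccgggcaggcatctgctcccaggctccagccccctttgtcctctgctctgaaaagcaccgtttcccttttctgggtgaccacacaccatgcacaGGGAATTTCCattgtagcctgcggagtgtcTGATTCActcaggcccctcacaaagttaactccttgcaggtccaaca

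To ask how TLR4 signaling altered PU.1 binding, counts were fitted with edgeR (quasi-likelihood F-test), and calls needed more than a 2-fold change and a p under 0.05 after Benjamini-Hochberg adjustment. With libraries scaled by their totals, 13316 peaks were called (26.3% of those tested), of which 2296 were higher with KLA (4.53%) and 11020 were lower (21.7%). The median log2 fold change over all peaks was -0.41. The TMM method of edgeR, a trimmed mean of log ratios that centres the peaks on each other, moved that median to 0.00 and gave 4629 peaks higher (9.13%) and 5365 lower. Because the share of tags in peaks differed between the groups, less PU.1 on chromatin with KLA and a weaker enrichment of the KLA libraries cannot be told apart. Peaks were therefore called gained or lost only when both scalings called them in that direction.

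On this definition PU.1 was gained at 2296 peaks (4.53%) and lost at 5365 (10.6%). It was kept at 20422 peaks (40.3%), meaning that neither scaling called them and that both put the change under 1.5-fold. The other 22607 peaks lay between these sets. All shares of gained and lost peaks depend on which peaks are listed, of which 97.7% were in the authors' Veh peak set and 36.9% in their KLA set. The part of this in the excess of lost over gained peaks was not tested. Both KLA libraries were above both Veh libraries at 19.8% of all peaks and below them at 64.1%, before any test.

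The gained peaks were weak in Veh. Their median level was 34.6 and 35.5 tags per 10 M in the Veh libraries and 109 and 108 with KLA, a median 2.89-fold rise. The lost peaks had medians of 68.3 and 68.5 tags per 10 M in Veh and of 18.3 and 18.5 with KLA, a median 3.45-fold fall. Kept peaks had 85.8 and 85.9 tags in Veh and 73.9 and 74.6 with KLA. Of the gained peaks, 188 (8.19%) were under 10 tags per 10 M in the mean of Veh, and 869 lost peaks (16.2%) ended under that level with KLA. More than 4-fold changes were found at 682 gained and 1751 lost peaks, and more than 16-fold changes at 99 gained and 18 lost peaks.

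**Figure D1:**
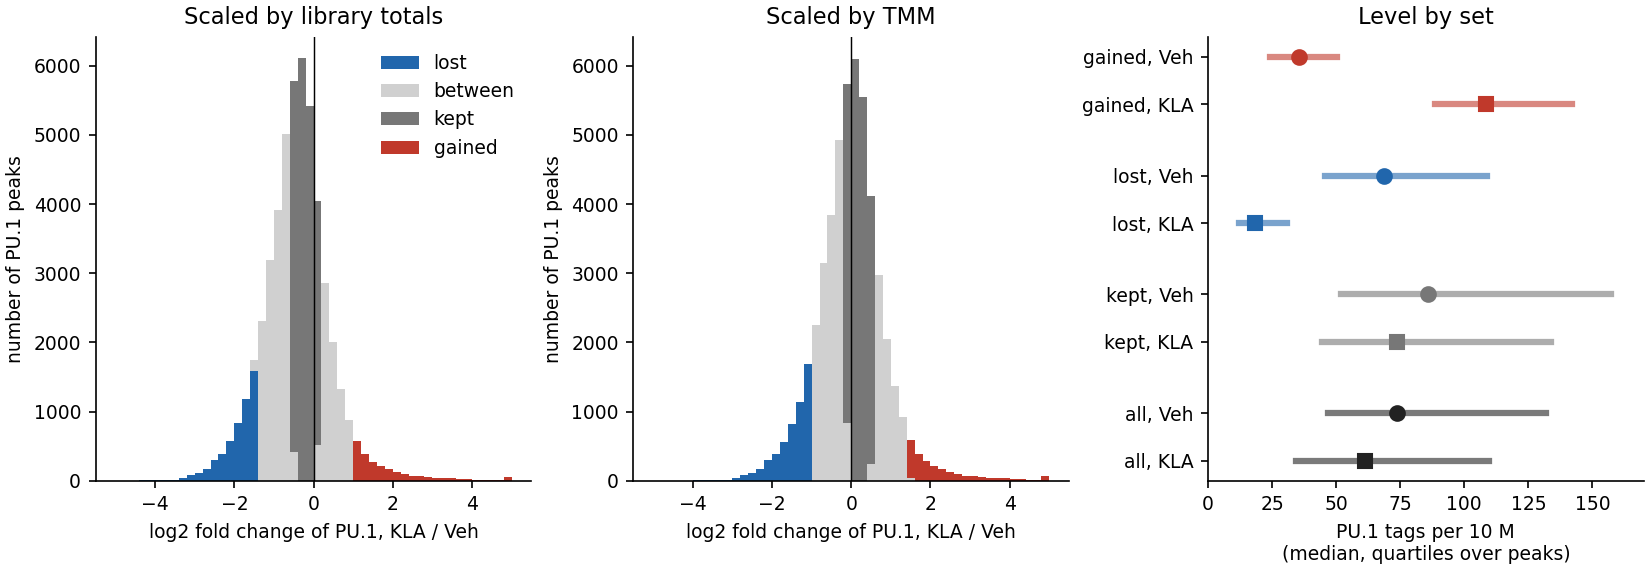
Histograms of the log2 fold change of PU.1 (KLA over Veh) for all 50690 peaks, scaled by library totals (left) and by TMM (centre), with bars stacked by set and the outermost bins holding all values beyond them. The right panel gives tags per 10 M as the median over peaks (circle, mean of the Veh libraries; square, mean of the KLA libraries) with a bar from the first to the last quartile. TMM shifts the centre of the histogram from -0.41 to 0.00 and leaves the gained tail on the right, and gained peaks go from a median of 35.3 to 108 tags per 10 M.

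The authors' own peak sets, made for each condition from its replicates, were set beside these changes. Of the 50690 merged peaks, 49521 were in the Veh set and 18720 in the KLA set. Among gained peaks 943 (41.1%) were only in the KLA set, 1124 (49.0%) were in both and 229 (9.97%) were only in the Veh set. Among lost peaks 5231 (97.5%) were only in the Veh set, beside 55.6% of kept and 63.1% of all peaks. Membership of a set and the change in tags come from the same libraries and are no independent evidence.

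When peaks were split into 5 equal groups by their mean over the 4 libraries, the weakest group had 0.138% gained and 23.8% lost peaks. In the middle group 9.14% were gained and 8.91% lost. The strongest group had 1.73% gained and 2.96% lost, and 55.7% of its peaks were kept. These shares are descriptions, since the mean that splits the peaks includes both groups and so depends on the change itself.

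By annotation class, most gained and lost peaks lay in introns or between genes. Of 23905 intronic peaks 4.64% were gained and 11.4% lost, and of 18236 intergenic peaks 5.54% were gained and 11.7% lost. Promoter peaks changed at lower shares than the background of 4.53% and 10.6%: of 6043 peaks in the promoter-TSS class 91 (1.51%) were gained, 280 (4.63%) were lost and 58.3% were kept. Exonic peaks (660) had 3.64% gained and 10.0% lost. For transcription termination sites (805 peaks) the shares were 3.98% and 8.07%, for 3′ UTRs (576) 3.65% and 10.1%, for 5′ UTRs (272) 1.10% and 8.09%, and for non-coding transcripts (192) 3.65% and 12.0%. The 5′ UTR share rests on 3 gained peaks.

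Distance to the TSS gave a graded picture for lost peaks. Their share was 6.43% within 2 kb of a TSS, 9.15% at 2 to 10 kb, 11.2% at 10 to 50 kb, 14.3% at 50 to 100 kb and 16.8% beyond 100 kb. The share of gained peaks was 2.10% within 2 kb and lay between 4.90% and 5.57% at every larger distance. Distal peaks, over 2 kb from a TSS, made up 90.4% of the gained, 87.5% of the lost and 73.4% of the kept peaks, against 79.4% of all.

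**Figure D2:**
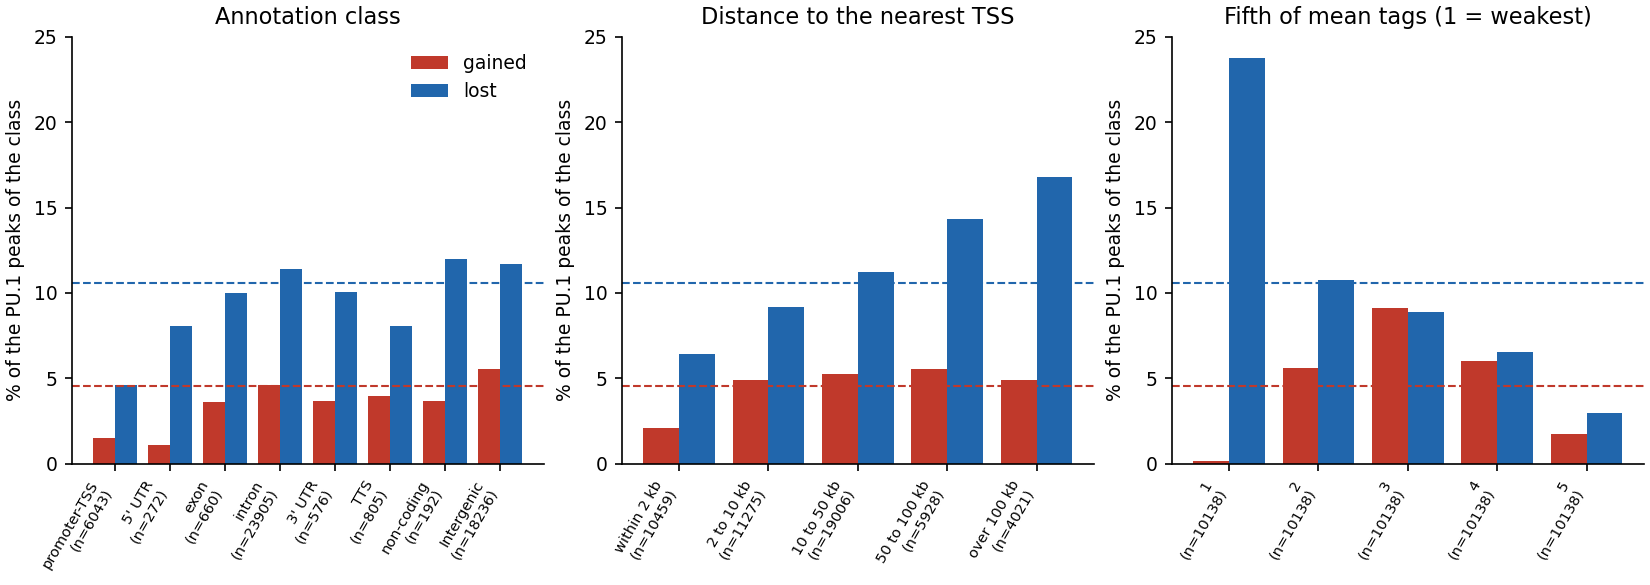
Share of PU.1 peaks gained (red) and lost (blue) with KLA, in percent, by annotation class, by distance to the nearest TSS and by 5 groups of equal size in mean tag level, with the number of peaks under each class and the shares over all peaks as dashed lines (4.53% and 10.6%). Promoters lie below both lines, and the lost share climbs with distance from 6.43% to 16.8%.

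The leading peak of each class shows the range. In the 5′ UTR of Birc3, which encodes the cIAP2 inhibitor of apoptosis, PU.1 was at 104 and 105 tags per 10 M in Veh and 215 and 233 with KLA (log2 fold change of 1.10 with an SE of 0.11). At the end of Dnajc22 it was at 7.76 and 8.09 in Veh and 132 and 134 with KLA. In an exon of Plekhg4 the values were 5.69 and 1.24 against 104 and 105. On the losing side, the promoter of Zfp36l2, an mRNA decay factor, had 289 and 285 tags in Veh and 37.9 and 57.4 with KLA (log2 fold change of -2.58 with an SE of 0.12). The 5′ UTR class was led by Adora3, an adenosine receptor, with 134 and 153 tags in Veh and 21.6 and 17.8 with KLA. The groups did not overlap in these 5 peaks, which follows from their choice, since they overlapped in none of the gained or lost peaks. Over all peaks, both KLA libraries lay above Veh at 19.8% and below it at 64.1%.

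Over genes, 13349 had at least 1 peak. Of these, 1528 had a gained peak and 2994 a lost peak, and 224 had both, which is 14.7% of the genes with a gain and 7.48% of those with a loss. All peaks were kept at 2955 genes. Peaks of a kind lay together: among the peaks within 20 kb of a gained peak, 19.0% were gained and 1.68% lost, and among those within 20 kb of a lost peak, 27.7% were lost and 0.717% gained. Another gained peak lay within 20 kb for 37.1% of the gained peaks, and another lost peak for 47.5% of the lost. Neighbouring peaks can share tags of a broad signal and are not independent.

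The genes with the most gained peaks were led by Edn1, which encodes the vasoconstrictor peptide endothelin-1, with 13 of 17 peaks gained and none lost. Its leading peak, 56.8 kb upstream (chr13:42244613-42244824), had 20.2 and 19.9 tags per 10 M in Veh and 281 and 242 with KLA (log2 fold change of 3.70 with an SE of 0.15, edgeR adjusted p = 3.53e-50). Slco3a1, an organic anion transporter gene, had 11 of 15 peaks gained. An intronic peak there (chr7:74527725-74527996) was the only gained peak without any tag in Veh, where a count of 0 allows 1.55 and 1.87 tags per 10 M, and it reached 94.2 and 84.1 with KLA, at least 45.05-fold higher than that limit. That limit is 3 counts per library and covers counting error only. All 11 peaks of 4930529L06Rik, a transcript next to the Mir155 locus on chromosome 16, were gained.

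The cytosolic phospholipase gene Pla2g4a, whose enzyme releases arachidonic acid, had 9 of 20 peaks gained, and its leading peak went from 3.62 and 1.87 to 133 and 108 tags per 10 M. Tnfaip3, which encodes the NFκB brake A20, had 9 of 19. The other genes of the leading 10 were Lpp (10 of 40), Gm14005 (9 of 36), St7 (9 of 21), Pou1f1 (8 of 13) and 1700012I11Rik (7 of 33). Gm14005 was the only one of the 10 that also had lost peaks (2).

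The genes with the most lost peaks were Fam198b (17 of 20), 2010111I01Rik (16 of 34), Fat3 (16 of 26), St6gal1 (15 of 20), 3300005D01Rik (14 of 22), Fli1 (14 of 22), Xylt1 (14 of 26), Mir21c (13 of 37), Gcnt1 (13 of 28) and Cxcr4 (13 of 17). None of the 10 had a gained peak. St6gal1 encodes the enzyme that adds α2,6-linked sialic acid to glycans, and its leading intronic peak (chr16:23231994-23232196) fell from 153 and 144 tags per 10 M to 17.7 and 16.6 (log2 fold change of -3.11 with an SE of 0.18). Cxcr4 is the receptor of the chemokine CXCL12. Its leading peak, 130 kb upstream (chr1:128722003-128722212), fell from 249.8 and 249.6 tags to 45.8 and 46.5 (log2 fold change of -2.43 with an SE of 0.13). Fli1, an ETS factor related to PU.1, had 367 and 357 tags at its strongest peak in Veh and 111 and 131 with KLA (log2 fold change of -1.58 with an SE of 0.10).

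Interferon-stimulated genes, which carry out the antiviral state, had the largest gained share among the 17 gene lists. Of their 88 peaks 31 were gained (35.2%, against 4.53% of all peaks) and none was lost, at 15 of the 28 genes with a peak. The median log2 fold change over the 88 peaks was 0.61 by library totals and 1.02 by TMM, beside -0.41 and 0.00 over all peaks. Gbp5, a guanylate-binding protein of host defence, had 5 of 6 peaks gained, and its promoter (chr3:142496630-142496861) went from 68.8 and 72.2 to 253 and 271 tags per 10 M (log2 fold change of 1.90 with an SE of 0.11, edgeR adjusted p = 4.06e-34). All 4 peaks of Mx1, a dynamin-like antiviral GTPase, and all 3 of Ifi44 were gained.

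At Gbp2 the leading peak (chr3:142618873-142619077) had 8.79 and 13.1 tags in Veh and 151 and 133 with KLA (log2 fold change of 3.71 with an SE of 0.21). Inside Usp18, which encodes a protease that removes the ubiquitin-like protein ISG15, an intronic peak chosen after its values were seen had 1.03 and 0.622 tags in Veh and 115 and 128 with KLA. Other genes of this list with a gain were Cd274, Gbp3, Ifih1, Ifit2, Ifit3, Mx2, Oas2, Oasl1 and Rsad2.

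Cytokines and growth factors had 38 gained and 6 lost among 155 peaks (24.5% and 3.87%, against 4.53% and 10.6% of all peaks). Their medians were 0.20 (totals) and 0.62 (TMM), and 13 of the 38 gains belonged to Edn1. All 6 peaks of Il12a, the p35 chain of interleukin-12, were gained. Its strongest peak lay 56.9 kb upstream (chr3:68633655-68633874) and had 48.6 and 56.0 tags per 10 M in Veh and 264 and 247 with KLA (log2 fold change of 2.29 with an SE of 0.12, edgeR adjusted p = 1.46e-38). For Il12b, the p40 chain, 1 of 6 peaks was gained, from 9.83 and 6.85 to 130.2 and 134 tags. Il6 had 5 of 9 peaks gained, and the one with the lowest p went from 0.517 and 1.24 tags to 149 and 157. Il1b had 2 of 8 gained, with 5.69 and 5.60 tags in Veh and 111 and 143 with KLA at a site 39.5 kb upstream.

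Tnf and Pdgfb moved both ways. At Tnf, 533 bp upstream of the TSS, PU.1 was at 52.7 and 44.2 tags in Veh and 96.2 and 112 with KLA, while a peak in an intron fell from 152 and 171 to 51.7 and 61.2. Ifnb1, the interferon β gene, had 1 lost and no gained peak among 4, with a median log2 fold change of 0.38 by totals. Its strongest peak 18.9 kb downstream (chr4:88503818-88504025) fell from 165 and 185 to 41.9 and 56.1 tags (log2 fold change of -1.83 with an SE of 0.14). Csf1, which encodes M-CSF, had 2 of 10 peaks lost and none gained.

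Among chemokines 10 of 86 peaks were gained (11.6%, against 4.53% of all peaks) and none lost (against 10.6%). The gains were at 5 of 18 genes (Ccl2, Ccl5, Ccl6, Ccl12 and Cxcl10), and the medians were 0.12 and 0.54. The Ccl5 promoter (chr11:83530473-83530676) had the lowest p of all peaks. It rose from 3.62 and 3.73 tags per 10 M to 214 and 209 (log2 fold change of 5.82 with an SE of 0.22, edgeR adjusted p = 3.18e-52), and its 200 bases held a PU.1 core together with an NFκB string. Ccl5 had 7 peaks, of which 3 were gained, and a peak 14 kb upstream that held 134 and 162 tags in Veh was at 182 and 198 with KLA. At the Cxcl10 promoter PU.1 rose from 33.1 and 36.1 to 118 and 116 tags (log2 fold change of 1.76 with an SE of 0.17), and its window held NFκB and ISRE-type strings.

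NFκB subunits and inhibitors had 28 gained and 4 lost among 150 peaks (medians 0.27 and 0.68), at 8 and 4 of 16 genes. These are 18.7% gained and 2.67% lost, against 4.53% and 10.6% of all peaks. Gains fell on the inhibitor genes Nfkbia, Nfkbie, Tnfaip3, Tnip1 and Tnip3 and on Nfkb1, Rel and Ikbke. Nfkbia, the gene for IκBα, had both kinds. A peak 6.67 kb downstream went from 22.8 and 22.4 to 141 and 164 tags, and an intronic peak 615 bp from the TSS, fell from 166 and 167 to 62.8 and 56.7.

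Inflammatory effectors had 23 gained and 6 lost among 129 peaks (17.8% and 4.65%, against 4.53% and 10.6% of all peaks). Their medians were -0.03 by totals and 0.38 by TMM. Upstream of Ptges, the gene of the prostaglandin E synthase, all 3 peaks were gained. The strongest of them, whose sequence is given above, went from 6.21 and 11.2 to 156 and 158 tags per 10 M (log2 fold change of 4.20 with an SE of 0.21, edgeR adjusted p = 2.93e-40). The 4 peaks of Mir155hg, host of a microRNA induced by TLR signaling, were gained, and the strongest had 8.27 and 13.7 tags in Veh and 181 and 166 with KLA. At the promoter of Cp, which encodes the ferroxidase ceruloplasmin, PU.1 was at 10.9 and 17.4 tags in Veh and 126 and 108 with KLA (log2 fold change of 3.06 with an SE of 0.21). The promoter of Acod1, the itaconate-producing enzyme, rose from 8.27 and 9.96 to 99.4 and 97.5.

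Losses in this list were at Arg1, Mmp13, Slc7a11 and Vcam1. For Ptgs2, which encodes the cyclooxygenase COX2, no PU.1 peak had it as nearest gene. Peaks around it are assigned to the antisense transcripts Ptgs2os and Ptgs2os2, and 3 of those 6 were gained. They were looked up after the values were seen, and the strongest change was at chr1:150198021-150198224, from 0 and 1.87 tags to 104 and 79.0.

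Genes of the macrophage surface had 14 gained and 9 lost among 217 peaks (6.45% and 4.15%, against 4.53% and 10.6% of all peaks). Of their peaks 44.2% were kept, and the medians were -0.13 and 0.29. At its strongest peak Itgam had 336 and 335 tags in Veh and 340.2 and 368 with KLA, a log2 fold change of 0.08 by totals and 0.49 by TMM. Cd14, the lipopolysaccharide co-receptor, had 271 and 298 tags against 279 and 294, which is 0.01 by totals and 0.43 by TMM. At Adgre1 the strongest peak was kept at 411 and 441 tags in Veh and 373 and 389 with KLA, and 3 weaker peaks of its 17 were gained. At Csf1r the strongest peak had 428 and 408 tags in Veh and 264 and 239 with KLA, which is under 2-fold and was not called by either scaling. The strongest peaks of Fcgr1 and Tlr4 likewise fell 1.54-fold and 1.67-fold by totals and lay between the sets. Weaker peaks of these genes were called: 1 of 11 at Csf1r and 1 of 12 at Tlr4 was lost, and 1 of 7 at Fcgr1 and 1 of 5 at Cd14 was gained. The lost Tlr4 peak went from 32.1 and 39.2 tags in Veh to 5.89 and 1.27 with KLA.

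Mrc1, the mannose receptor CD206, had 5 of its 10 peaks lost, and at its promoter (chr2:14229166-14229375) PU.1 fell from 194 and 187 to 26.2 and 35.7 tags (log2 fold change of -2.62 with an SE of 0.15). The promoter of Trem2, a lipid-sensing receptor, fell from 217 and 202 to 67.4 and 70.7. Itgax, the gene for CD11c, had 4 of 10 peaks gained. Among chemotactic receptors 10 peaks were gained and 15 lost of 128 (7.81% and 11.7%, against 4.53% and 10.6% of all peaks), and 13 of the losses were at Cxcr4. The formyl peptide receptors moved the other way, with 4 of 5 peaks gained at Fpr1 and 3 of 5 at Fpr2, and the leading Fpr1 peak rose from 8.79 and 9.96 to 178 and 173 tags.

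At genes of myeloid transcription factors, of 539 peaks 27 were gained (5.01%) and 55 lost (10.2%), with medians of -0.39 and 0.02, so their shares were near those of all peaks (4.53% and 10.6%). Fli1 (14 of 22 lost) and Klf4 (10 of 35) accounted for 24 of the 55 losses. At the strongest Klf4 peak, 209 kb upstream, tags fell from 364 and 376 to 95.5 and 93.0 (log2 fold change of -1.97 with an SE of 0.10, edgeR adjusted p = 5.34e-40).

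At Cebpa the strongest peak, 31.8 kb downstream, had 313 and 302 tags in Veh and 136 and 120 with KLA, which library totals called (log2 fold change -1.26) and TMM did not (-0.85), and 3 weaker peaks of its 8 were lost. Cebpb was kept at 93.6 and 78.4 against 81.8 and 65.6 tags. Irf8 kept its strongest peak (312 and 349 against 258 and 251), gained 2 and lost 4 of 17. Zeb2 gained 6 of 29 peaks and Etv6 5 of 38.

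The gene of PU.1 itself was part of the kept set. Its strongest peak is the intergenic peak 10.2 kb upstream of the Spi1 TSS whose sequence is printed above. It had 253 and 242 tags per 10 M in Veh and 189.7 and 162 with KLA. The log2 fold change there was -0.50 (SE 0.09) by totals and -0.08 by TMM. None of the 5 Spi1 peaks was gained or lost.

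**Figure D3:**
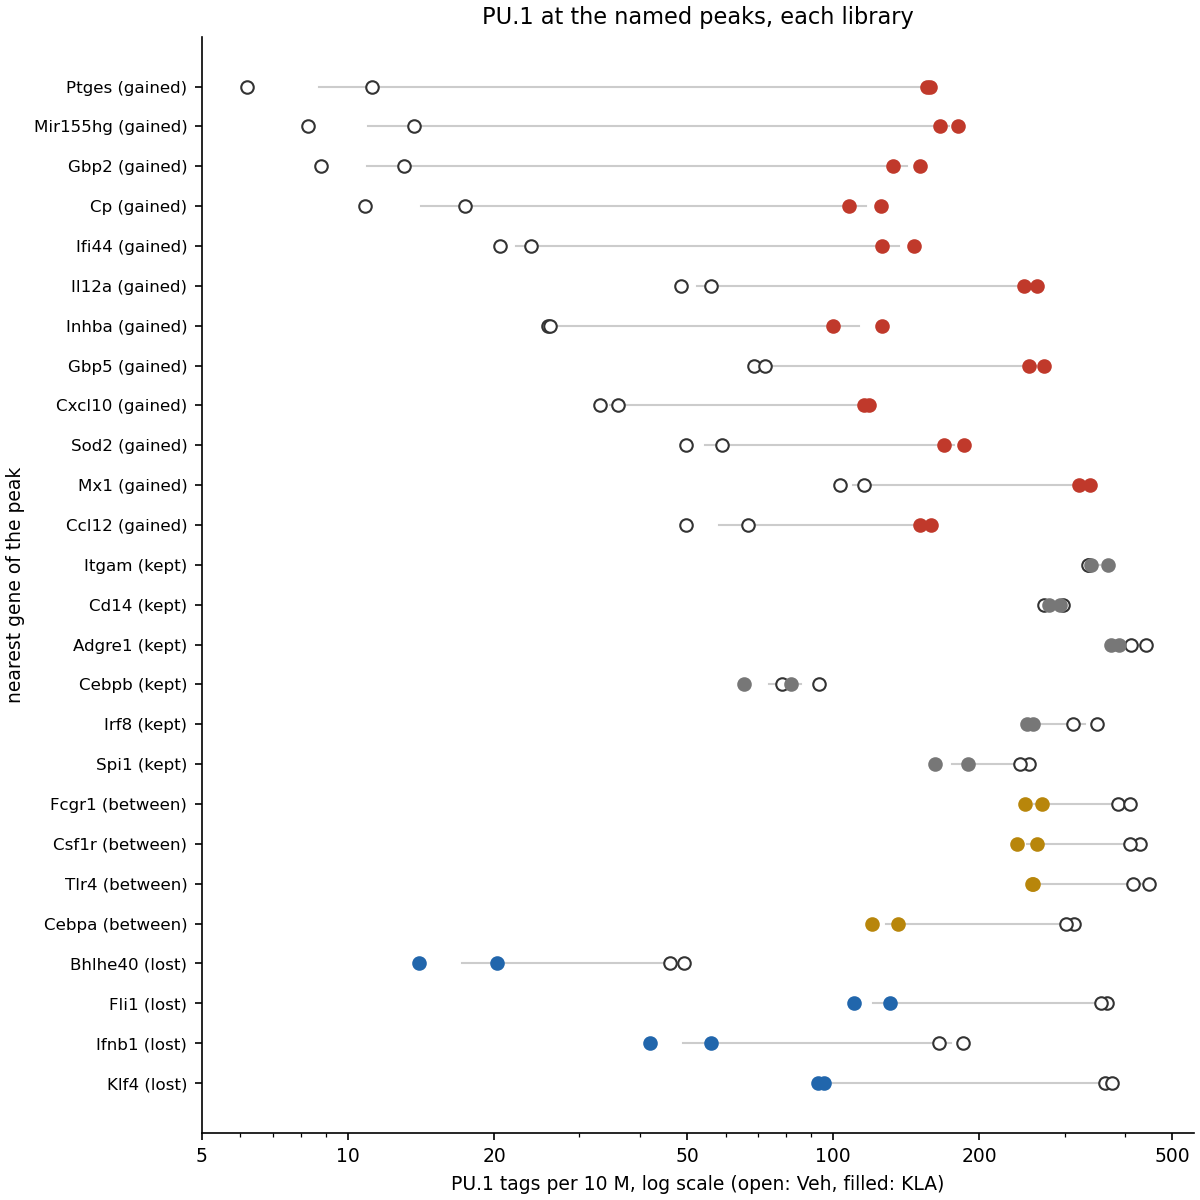
PU.1 tags per 10 M (log axis) in each of the 4 libraries at the strongest peak of selected genes, with Veh as open and KLA as filled circles and a line between the group means. Gained peaks span 6.21 to 116 tags in Veh and 100.1 to 339 with KLA. The groups overlap within none of them, which is so for every gained peak of the whole set, while the Cd14 and Cebpb peaks overlap between groups.

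Other lists are read against the 4.53% gained and 10.6% lost of all peaks. Toll-like receptors and adaptors had 9 gained and 6 lost among 160 peaks (medians -0.22 and 0.20), with 4 of the gains at Tlr1. AP-1 and ATF factors had 5 gained and 9 lost among 135, and 5 of the losses were at Jun. Genes of LXR signaling, lipids and sterols had 5 gained and 16 lost among 161 (3.11% and 9.94%, medians -0.42 and -0.01), near the values of all peaks, including 4 losses at Rxra and 3 each at Pparg and Cpt1a. Near Pparg, a nuclear receptor of lipid metabolism, the leading intronic peak fell from 107 and 139 to 20.9 and 20.4 tags.

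Osteoclast genes had none gained and 17 lost among 79 peaks (21.5%), with medians of -0.71 and -0.30, and 12 of these losses were at Atp6v0d2. That gene encodes a proton pump subunit needed for cell fusion, and its leading peak (chr4:19942367-19942575) fell from 180.5 and 172 to 23.6 and 21 tags (log2 fold change of -2.98 with an SE of 0.16). Lysosomal genes had 5 gained and 8 lost among 143 peaks, cell cycle genes 5 and 13 among 105, and circadian clock genes 2 and 3 among 43. Ribosomal protein genes, taken as a comparator, had 1 gained and 6 lost among 108 and 60.2% kept. Genes of other blood cells had none gained and 3 lost among 27.

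The peaks with the lowest p-values over the genome were not confined to immune genes. After Ccl5, the gained peaks were in an intron of Gpd2, which encodes the mitochondrial glycerol phosphate dehydrogenase (23.3 and 13.7 tags in Veh, 284 and 270.2 with KLA, log2 fold change 3.87, SE 0.15), near 1700055C04Rik, near Edn1, near Mir5118, in introns of Prkcb, Pik3cd and Bcl2l14, at the Braf promoter and near Crlf3. Prkcb, Pik3cd and Braf encode signaling kinases. The Bcl2l14 peak had 1.55 and 1.24 tags in Veh and 164 and 154 with KLA. Each of the 10 was in the KLA peak set only.

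The lost peaks with the lowest p-values were in introns of Rnf150, Zfyve28, Slco2b1, Mad1l1, Lyzl4 and Wdfy2, upstream of Cd28 and of Zfp36l2, and near 1700110C19Rik and Mir21c. At Rnf150 PU.1 fell from 336 and 377 to 60.2 and 50.3 tags (log2 fold change of -2.68 with an SE of 0.11, edgeR adjusted p = 5.50e-48). At Slco2b1, shown above, it fell from 225 and 225 to 25.5 and 21. None of these 10 genes belongs to the gene lists.

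Among the 10 kept peaks with the most tags were those nearest to Pigm, Cmtm6, Ptpn1, Fhad1os1, Ptafr, Il6ra, Atp5o, Jazf1 and Slc27a3. Ptafr encodes the receptor of platelet-activating factor, and its peak had 516 and 608 tags against 529.9 and 536. Over these 9 peaks, log2 fold changes ran from -0.45 to 0.04 by totals and from -0.04 to 0.46 by TMM.

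To see what else happened at these sites, PU.1 peaks were matched to peaks of 7 other factors and to 2 sets of H3K27ac regions (a mark of active enhancers and promoters) from separate libraries of BMDMs with and without KLA, at 500 bp or less between centres. These BMDMs were wild type, except that the H3K27ac set named WT came from NCoR flox/flox mice, and the p300 control is named 0 h in its file header. The NFκB subunit p65 was measured in 4 libraries of its own. The labels name shared inputs for Fosl2, p65 and PU.1, and they do not say whether the chromatin of these libraries was also shared. Of the gained PU.1 peaks 91.1% had a p65 peak nearby, of the lost 31.2%, of the kept 65.1% and of all 60.0%. At these pairs the median log2 fold change of p65 was 3.44 at gained, -0.85 at lost and 0.95 at kept PU.1 peaks by totals, and 2.23, -2.06 and -0.27 by TMM. p65 was called higher under both scalings at 82.6% of the paired gained peaks and at 0.478% of the paired lost peaks. Over all PU.1 peaks with a p65 peak nearby, p65 was higher at 14.9% and lower at 4.67%. Of all p65 peaks, with or without PU.1, 27.6% were higher and 5.43% lower. Still, 204 gained PU.1 peaks had no p65 peak within that distance.

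Read from p65, of 4539 PU.1 peaks with a p65 peak that rose, 38.1% were gained and 0.176% lost. Of 1421 with a p65 peak that fell, none was gained and 44.8% were lost. Of 20276 with no p65 peak, 1.01% were gained and 18.2% lost. Of all 14540 p65 peaks that rose, 32.7% had a PU.1 peak nearby and 12.5% a gained one.

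Fosl2, an AP-1 subunit, showed the same split. It had a peak near 70.4% of the gained, 35.9% of the lost and 49.0% of the kept PU.1 peaks, with median log2 fold changes of 2.48, -2.04 and -0.16. Of the 1376 PU.1 peaks with a Fosl2 peak that rose, 69.6% were gained, and of the 912 with one that fell, 59.1% were lost. Over all Fosl2 peaks 11.3% were higher and 4.17% lower under both scalings. The KLA libraries of Fosl2 differed in depth and enrichment, with 4.30 and 8.55 M tags and 16.4% and 32.3% of tags in peaks, and their part in these values was not tested.

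The corepressor NCoR and its deacetylase HDAC3 also moved with PU.1. NCoR had a peak near 91.2% of gained and 51.1% of lost PU.1 peaks, with medians of 1.90 and -1.99. It was called higher at 79.7% of the former pairs and lower at 83.0% of the latter. Over all PU.1 peaks with an NCoR peak nearby, NCoR was higher at 11.2% and lower at 21.7% (over all NCoR peaks 23.2% higher, 16.7% lower). For HDAC3 the medians were 1.92 and -1.76 (over all HDAC3 peaks 23.9% higher, 11.3% lower). The KLA libraries of HDAC3 differed in depth and enrichment, with 17.1 and 5.69 M tags and 31.2% and 46.5% of tags in peaks. Their part in these values was not tested. The coactivators p300 and PGC1β had medians of 2.46 and 2.22 at gained peaks and of -1.60 and -1.38 at lost peaks. Over all peaks of these factors, 32.7% were higher and 12.9% lower for p300, and 15.8% and 6.35% for PGC1β. The KLA libraries of PGC1β had 9.16 and 17.5 M tags, with 16.3% and 12.5% of tags in peaks, and the part of this was not tested. For the kinase ERK1, with a peak at 59.8% of gained and 22% of lost PU.1 peaks, the medians were 2.21 and -1.47, beside 8.11% higher and 2.53% lower over all ERK1 peaks.

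H3K27ac was counted over open regions, of which few lay within 500 bp of a gained peak. The study's figure legends take such regions from open chromatin (ATAC-seq) in Veh, whereas its methods name the same conditions. If they came from Veh, sites that opened only with KLA would be left out. The medians cover only PU.1 peaks with a region nearby. In the WT libraries 14.7% of the gained and 11.6% of the lost PU.1 peaks had such a region, against 24.0% of all, and the medians were 1.28 and -0.71 (over all regions tested 5.58% higher, 4.56% lower). In cells that also received the solvent DMSO the shares were 12.0% and 29.5%, and the medians 1.58 and -1.91 (6.72% higher, 17.6% lower). The signs of the medians at gained and at lost peaks were the same under both scalings for all 9 readouts, whereas at kept peaks the sign changed with the scaling for p65, p300, HDAC3, ERK1 and H3K27ac (DMSO).

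Across sites, the log2 fold change of PU.1 correlated with that of the partner peak at Pearson's r of 0.802 for HDAC3, 0.780 for NCoR and for Fosl2, 0.773 for PGC1β, 0.750 for p300, 0.739 for p65, 0.677 for ERK1, and 0.628 (DMSO) and 0.404 (WT) for H3K27ac. These are descriptions over 12145 to 35936 PU.1 peaks, which share their libraries, depth and base composition, and some of which share a partner peak. The part of the unequal KLA libraries of HDAC3, Fosl2 and PGC1β in these correlations was not tested.

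**Figure D4:**
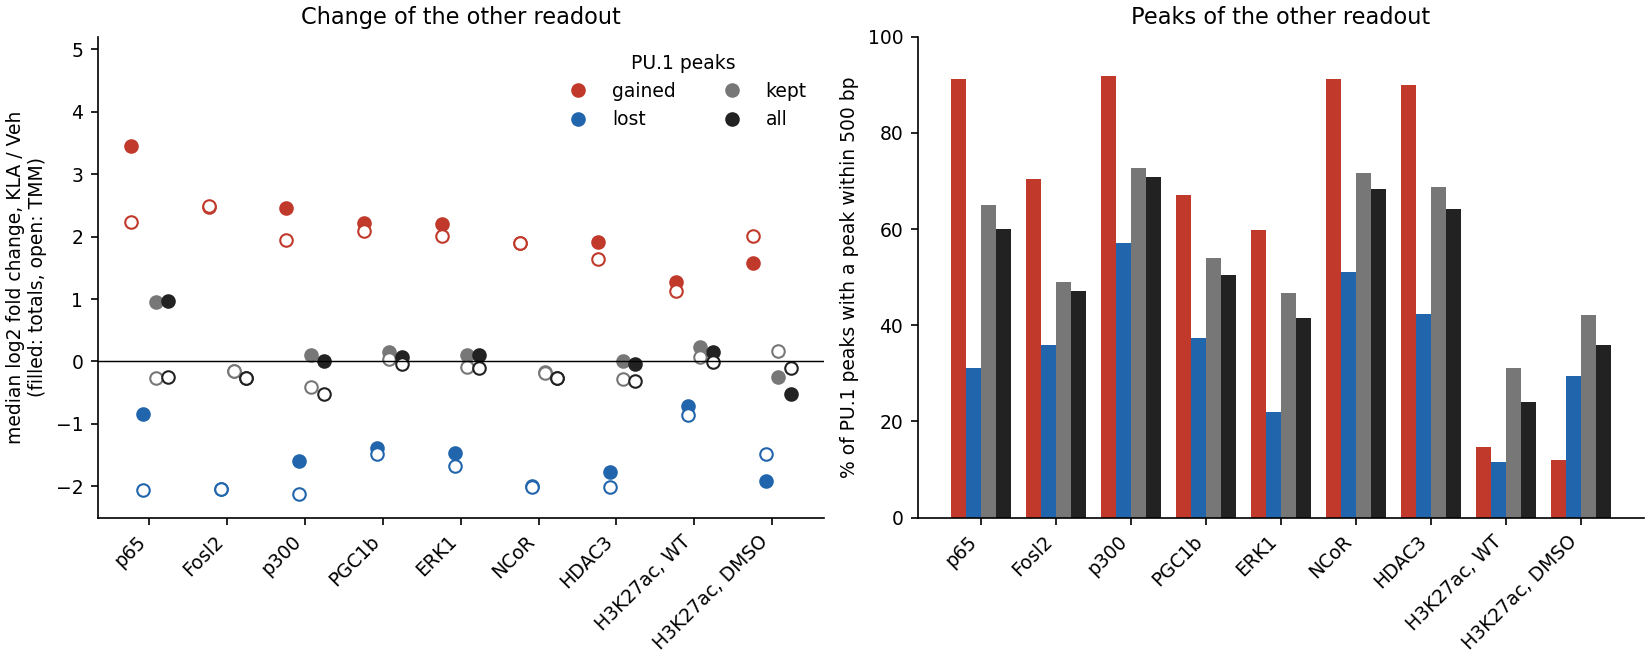
Left, median log2 fold change (KLA over Veh) of 9 other readouts at the peaks paired with gained, lost, kept and all PU.1 peaks, scaled by totals (filled) and by TMM (open). Right, percent of PU.1 peaks of each set with a peak of that readout within 500 bp. The smallest median at gained peaks is 1.12 and the one nearest 0 at lost peaks is -0.71 (both H3K27ac, WT), and 91.1% of gained but 31.2% of lost peaks have a p65 peak.

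Sequence was then compared over 200 bases around the centre of each peak on both strands, and 50683 peaks lie on mm10 chromosomes. Several strings of other factors were more frequent in gained than in lost peaks. AP-1 (TGANTCA) was found in 18.4% of gained, 8.80% of lost, 14.5% of kept and 13.9% of all peaks. C/EBP (TTGCNNAA) was found in 18.7%, 8.97%, 12.2% and 12.2%, ISRE-type IRF (GAAANNGAAA) in 10.6%, 2.33%, 4.48% and 4.42%, and NFκB (GGGNNNTTCC) in 9.32%, 3.73%, 4.94% and 4.93%. STAT (TTCNNNGAA) differed less, with 7.93% of gained and 5.91% of lost peaks against 6.66% of all.

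Strings for PU.1 and some partners ran the other way. The PU.1 core (GAGGAAGT) was found in 12.9% of gained, 19.2% of lost, 17.6% of kept and 18.1% of all peaks. A shorter core (GAGGAA), added after the data were seen, was in 52.4%, 58.4%, 54.6% and 55.7%. ETS-IRF composites (GGAANNGAAA) were in 6.66% of gained, 10.2% of lost and 8.17% of all peaks, and RUNX (TGTGGTT) in 6.23%, 9.15% and 7.40%. KLF/Sp strings (CCGCCC) were in 2.26% of gained, 6.97% of lost, 14.3% of kept and 10.5% of all peaks, EGR (GCGTGGG) in 0.523%, 1.29%, 2.02% and 1.75%, and MiT E-boxes (TCACGTG) in 0.958%, 1.49%, 2.38% and 1.89%.

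Base composition moved with these shares. The median GC content of the 200 bases was 42.2% in gained, 49.5% in lost, 48.5% in kept and 48.0% in all peaks, and its part in the motif shares was not tested. Among distal peaks only, also added after the data were seen, KLF/Sp shares were 2.17% of gained, 4.67% of lost and 4.71% of kept peaks, and AP-1 shares 18.5%, 9.23% and 17.5%. The order of gained against lost was the same for all 12 strings and for GC content among distal peaks and in 100 bases. An NFκB string can overlap a PU.1 core, as in the Ptpn1 peak printed above, and a match is not a measured site.

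**Figure D5:**
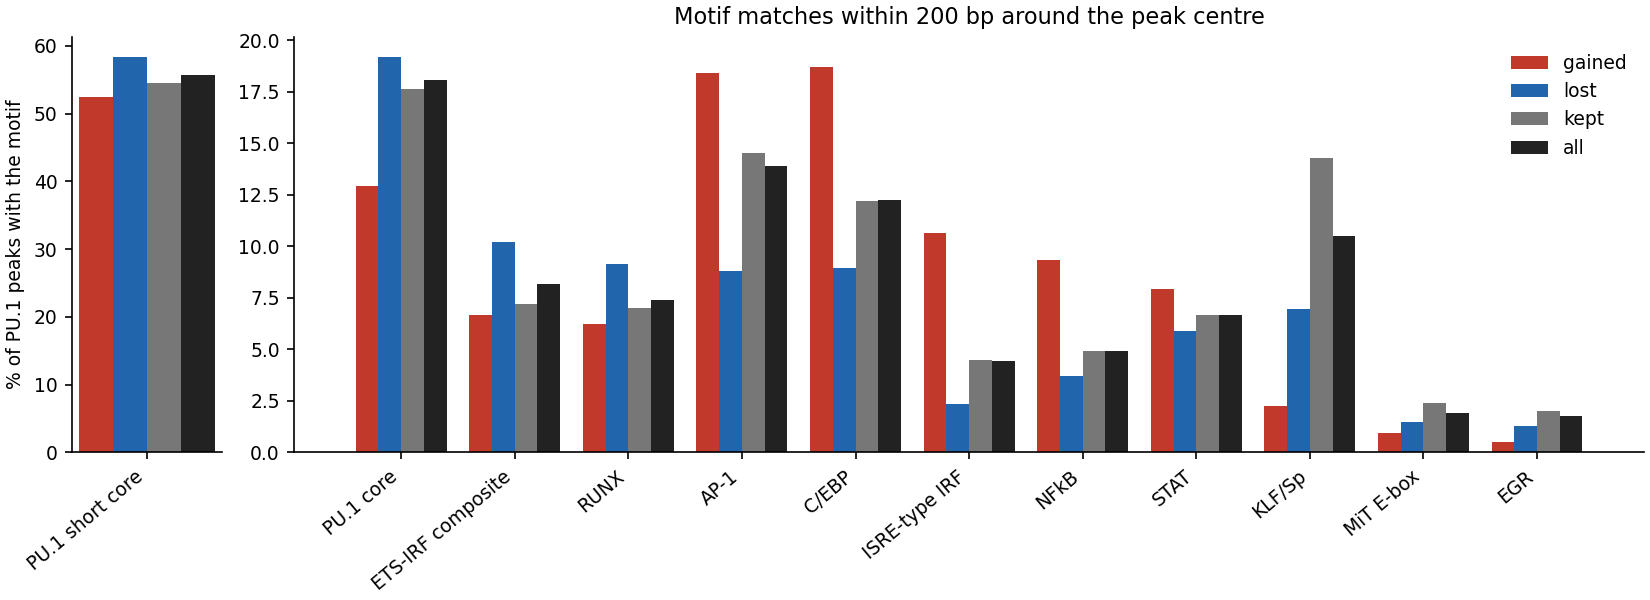
Percent of gained, lost, kept and all PU.1 peaks with at least 1 match to each motif string in the 200 bp around the peak centre, with the short PU.1 core on its own axis. Gained peaks lie above all peaks for AP-1 (18.4%), C/EBP (18.7%), ISRE-type IRF (10.6%), NFκB (9.32%) and STAT, and below for the PU.1, ETS-IRF, RUNX, KLF/Sp, EGR and MiT strings.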

How the data were processed

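PU.1 was measured by ChIP-seq in wild-type BMDMs after double crosslinking with DSG and formaldehyde. The authors mapped reads to mm10 with Bowtie2, called peaks with HOMER, kept those reproducible between replicates by IDR, merged them over conditions, and deposited raw tag counts per peak with the library total in each column header. Tool versions are not given in the sources used here, and input libraries were not analysed here. From these counts, edgeR 4.0.16 (R 4.3.3) was fitted with header totals as library sizes, and again with TMM. The same was done for the tables of 7 other factors and 2 H3K27ac sets (at least 16 tags in 1 library). Values are tags per 10 M, and the SE is the absolute log2 fold change divided by the square root of F. Precision is limited by 2 libraries a group. On simulated counts for all 50690 peaks, with 200 changed 3-fold up or down, library totals recovered 99.5% and gave 0 false calls. The simulated libraries had equal enrichment and no overall shift, unlike the real ones. The simulation therefore does not cover the choice of scaling or the gained and lost sets.

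Of the peaks, 50683 lay on chromosomes of GRCm38, and the deposited TSS distance was met within 10 bp at 94.3% of those with a listed transcript there. Motif strings were searched with pysam 0.24.0. Named peaks were, for each gene of 6 lists, the one with the most tags, of which the 4 gained and 4 lost with the lowest p were kept, with 10 fixed genes, the 10 gained and 10 lost with the lowest p, the 10 kept with the most tags, the genes with the most calls and the leading peak of each class. Other listed genes are shown by their called peak of lowest p, which was chosen after the values were seen. Members and lists were chosen with earlier results of these data known. Alternatives were other scalings, DESeq2 1.42.0, other filters, no fold minimum, distal peaks, a replicate block and each library left out. A few peaks that this rule names are not reported here.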

Additional observations from a re-analysis of the deposited data

How the results depend on the processing

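The calls depended on scaling. Peaks higher with KLA numbered 2296 by library totals, 4629 by TMM, 4586 by DESeq2 size factors, 3939 by tags inside the peaks and 4590 in the DESeq2 Wald test, and lower peaks numbered 11020, 5365, 5414, 6239 and 5371. The median log2 fold change was then 0.0018, -0.0030, -0.087 and -0.0029 in place of -0.41, and -0.44 among distal peaks, where fewer peaks were tested (2076 gained and 4562 lost of 40230). Without a fold minimum 7393 peaks were higher and 27923 lower, with 7393 gained and 15497 lost. No filter, filterByExpr and at least 16 tags gave identical counts. Leaving out each library gave 2293 to 2410 higher, 10904 to 11441 lower, 2293 to 2410 gained and 5380 to 5745 lost peaks, and a median of -0.42 to -0.40. With 1 library left in a group, its spread was taken from the other group.

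The replicate numbers are not stated to pair the libraries, and deviations of the first replicates correlated at -0.0266. With replicate number as a block 2292 peaks were higher and 11044 lower, 2292 were gained and 5382 lost, with a median of -0.41.

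The 26 named gained and 19 named lost peaks kept their call under every scaling, the block and each left-out library, and Cebpa was called lower by totals only. For totals and TMM this holds by definition, since both define the sets. The other scalings had medians between theirs, and these peaks were named by low p, so this is a weak check. The sign turned positive by TMM at the kept peaks of Cebpb (0.18), Irf8 (0.042), Adgre1 (0.26), Pigm (0.34), Cmtm6 (0.30), Ptpn1 (0.028), Fhad1os1 (0.41), Ptafr (0.35), Il6ra (0.029) and Slc27a3 (0.16). The sign turned positive by DESeq2 size factors at the kept peaks of Cebpb (0.18), Irf8 (0.037), Adgre1 (0.25), Pigm (0.33), Cmtm6 (0.30), Ptpn1 (0.023), Fhad1os1 (0.40), Ptafr (0.34), Il6ra (0.024) and Slc27a3 (0.16). The sign turned positive by tags inside the peaks at the kept peaks of Cebpb (0.095), Adgre1 (0.17), Pigm (0.25), Cmtm6 (0.21), Fhad1os1 (0.32), Ptafr (0.26) and Slc27a3 (0.074). The sign turned positive in the DESeq2 Wald test at the kept peaks of Cebpb (0.18), Irf8 (0.035), Adgre1 (0.25), Pigm (0.33), Cmtm6 (0.30), Ptpn1 (0.022), Fhad1os1 (0.41), Ptafr (0.34), Il6ra (0.023) and Slc27a3 (0.16). Leaving out 1 library turned the sign of Cd14 (-0.058 without Veh replicate 1 and -0.027 without KLA replicate 2, in a range up to 0.077), Pigm (-0.17 to 0.015, the latter without Veh replicate 2), Fhad1os1 (-0.086 to 0.087, positive without Veh replicate 1 and, at 0.035, without KLA replicate 1), Ptafr (-0.19 to 0.048, the latter without Veh replicate 2) and Jazf1 (-0.064 to 0.15, the former without Veh replicate 1).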

Other observations

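Shares were also counted over peaks that the annotation places in repeats, without a test. Of 2525 peaks in LINE elements 8.67% were gained and 10.8% lost, of 410 in DNA transposons 12.0% and 6.59%, of 4457 in LTR elements 4.80% and 12.1%, and of 1484 in SINEs 5.39% and 9.57%, beside 4.53% and 10.6% of all peaks. Among single elements, MTC had 8.60% gained of 372 peaks and ORR1E 2.73% gained and 14.7% lost of 293. Copies of an element share sequence and are not independent. The lowest-p gained peaks in Gpd2 (LINE), near 1700055C04Rik (LTR) and near Mir5118 (LTR) lie in such elements.

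By chromosome, gained shares ran from 1.86% of 968 peaks on chromosome X to 7.07% of 1896 on chromosome 16, which carries the Mir155hg, Lpp and Pou1f1 clusters.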
